A study of Mus musculus with 18 samples.

Results

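The genes described here are the skeletal muscle actin Acta1, the cardiac genes Actc1, Myl7, Nppa and Nppb, and the smooth muscle genes Acta2, Actg2, Tagln, Cnn1 and Myh11. They were chosen by gene symbol, and 17 of the 45281 probes on the array carried 1 of these 10 symbols, out of 30869 symbols in all. The set was drawn up because muscle genes were seen to be far lower in HPRT knockdown than in control cells at the neuronal stage. Every comparison that uses the arrays of the neuronal stage is therefore a description with no test, whereas the comparisons within and between the earlier stages were tested.

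The cells were D3 mouse embryonic stem (ES) cells of strain 129s2/SvPas, known as ESD3, which were grown with LIF and bFGF on primary mouse embryo fibroblast feeder cells. They were examined at the ES stage, as spherical neural masses (SNM) and as neurons at the end of a dopaminergic differentiation. Knockdown cells carried an shRNA against HPRT, the enzyme that salvages purines, and control cells an shRNA against luciferase, so that both had been infected with a virus (a retrovirus in the labels, a lentivirus in the methods). RNA of replicate cultures was pooled, and each of the 6 conditions was measured on 3 arrays of 1 such pool. SDs and tests thus cover the error of the array between RNA pools and not the spread between cultures or cell lines.

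Levels are log2 signals after background correction and quantile normalization, given with the SD over 3 arrays, and a signal counts as detected where its detection p-value is under 0.05. This gave 18827 to 22202 detected probes on an array, and the median SD of a detected probe within a condition lay between 0.0979 and 0.12. Where a gene had more than 1 probe the brightest stands for it, and a level is compared only with levels of the same probe. The targeted gene, listed as Hprt1, was lower in knockdown than in control cells by log2 differences of -4.09 (ES), -1.76 (SNM) and -4.45 (neuronal stage), with all 3 knockdown arrays below all control arrays each time. The labelled cell types were checked against marker lists. All 8 pluripotency genes were detected at the ES stage and all 8 fell from the ES to the SNM stage in both cell lines, but all 8 were still detected at the neuronal stage. Of 7 neuron genes on the array, 5 were detected on all control arrays and 4 on all knockdown arrays of the neuronal stage. These counts were the same at the SNM stage, so that detection did not separate the neuronal from the SNM stage, but levels did. Summed over the 7 genes, control signal ranged from 3488 to 3674 as SNM and from 7311 to 7662 at the neuronal stage. In knockdown cells the sums went the other way, from 3588 to 3803 as SNM and from 1282 to 1439 at the neuronal stage. The neuronal genes Nefl and Snap25 were not detected on any array.

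Actins are the proteins of the thin filament. The skeletal, cardiac and smooth muscle forms are encoded by separate genes and differ little in protein sequence, and each is switched on in its own kind of muscle, although Acta2 is also made by myofibroblasts and pericytes, and skeletal and cardiac actin are made together in young striated muscle. Many of these genes carry a CArG box, the DNA motif bound by serum response factor (SRF), whose activity depends on myocardin, the myocardin-related factors and the pool of unpolymerised actin. In the embryo Acta2, Tagln and Actc1 are also active for a time in precursors of heart and skeletal muscle.

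Promoters of 7 of the 10 genes stood in the RefSeq table (build GRCm38.p6). Those of Acta1, Actc1, Myl7 and Acta2 are shown because their neuronal-stage levels are set against each other here: Acta1 and Actc1 were bright in control cells alone, Acta2 in both cell lines, and Myl7 was detected in neither. Each line gives the 250 bases before the transcription start on the gene's own strand, 5′ to 3′, and capitals mark a CArG box or the letters TATAAA on that strand.
Acta1, chr8:123894776-123895025, minus strand: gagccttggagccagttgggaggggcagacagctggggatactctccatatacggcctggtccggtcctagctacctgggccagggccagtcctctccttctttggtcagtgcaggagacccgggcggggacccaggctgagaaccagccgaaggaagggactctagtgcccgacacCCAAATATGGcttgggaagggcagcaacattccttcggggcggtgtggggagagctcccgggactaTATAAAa
Actc1, chr2:114052876-114053125, minus strand: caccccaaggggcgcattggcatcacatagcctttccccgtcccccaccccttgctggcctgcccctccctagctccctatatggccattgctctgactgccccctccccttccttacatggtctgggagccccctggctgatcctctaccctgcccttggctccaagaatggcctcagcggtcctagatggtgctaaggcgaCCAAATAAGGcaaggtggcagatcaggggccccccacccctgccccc
Myl7, chr11:5898783-5899032, minus strand: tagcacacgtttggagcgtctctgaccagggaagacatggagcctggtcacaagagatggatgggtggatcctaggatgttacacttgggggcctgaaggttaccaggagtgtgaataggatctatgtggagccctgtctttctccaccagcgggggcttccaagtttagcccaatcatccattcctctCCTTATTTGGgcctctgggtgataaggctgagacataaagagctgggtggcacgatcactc
Acta2, chr19:34255374-34255623, minus strand: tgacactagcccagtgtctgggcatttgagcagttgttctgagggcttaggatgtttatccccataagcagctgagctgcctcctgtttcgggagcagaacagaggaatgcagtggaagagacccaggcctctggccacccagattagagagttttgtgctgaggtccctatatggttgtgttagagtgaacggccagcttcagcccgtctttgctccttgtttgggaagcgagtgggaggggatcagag

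Both strands of windows of 300 bases, which run to 50 bases past the start, were searched. A CArG box was counted only in its strict form, CCWWWWWWGG, with W for A or T. A CArG box stood 73 to 64 bases before the start of Acta1 and 47 to 38 bases before that of Actc1. That of Myl7 stood 61 to 52 bases before the start. None of this strict form was found in these windows of Acta2, Nppa, Nppb and Cnn1. Near matches were not counted, such as ccctatatgg and ccttgtttgg in the Acta2 line, the first of which also stands in the Actc1 line. Of all 32851 promoters in the table, 1.63% held a CArG box in the window. The letters TATAAA stood in 4 of the 7 windows against 13.6% of all promoters, and the E-box CANNTG, the motif of the MyoD family, in all 7 against 72.3%. In Actc1 the TATAAA letters lay past the start and so outside the printed line. The starts are those of the RefSeq table and were not checked here, so that all distances depend on that annotation. A MEF2 site was found in 0 of the 7 windows and in 0.557% of all promoters. None of the CArG boxes shared bases with the TATAAA or CANNTG matches. These matches are descriptions of letters and not of binding.

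Acta1, the actin of the skeletal muscle thin filament (chromosome 8), had 1 probe and was detected on all 18 arrays. At the ES stage its log2 signal was 7.92, 7.77 and 7.85 on the control arrays and 7.34, 7.20 and 7.18 on the knockdown arrays. The SNM arrays gave 9.16, 9.24 and 9.35 in control cells and 9.54, 9.47 and 9.43 in knockdown cells. The neuronal arrays gave 14.35, 14.39 and 14.42 in control cells but 6.98, 5.94 and 6.16 in knockdown cells. The control arrays of the neuronal stage thus stood far above every other condition, and the knockdown arrays of that stage were the lowest of all. The 6 conditions fell in the order control neuronal, knockdown SNM, control SNM, control ES, knockdown ES and knockdown neuronal, and no neighbours in this order overlapped.

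The difference in Acta1 at the neuronal stage was -8.03 on the log2 scale, 261-fold. In the deposited signals, before any correction, this was a range of 18863 to 21909 in control cells against 108 to 176 in knockdown cells. Between SNM and neuronal arrays, control cells gained 5.14 on the log2 scale, whereas the signal of knockdown cells fell by 3.12. At the ES stage Acta1 was lower in knockdown cells by -0.61 (standard error 0.17, adjusted p = 0.0342 from limma), but this call was lost when any 1 of the 6 ES arrays was left out, with adjusted p between 0.0532 and 0.0979 from limma. For SNM the difference was 0.23 with a 95% confidence interval from -0.14 to 0.60 (adjusted p = 0.285 from limma). Acta1 rose from the ES to the SNM stage by 1.40 in control cells (adjusted p = 1.72e-06 from limma) and by 2.24 in knockdown cells (adjusted p = 4.51e-09 from limma).

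**Figure D1:**
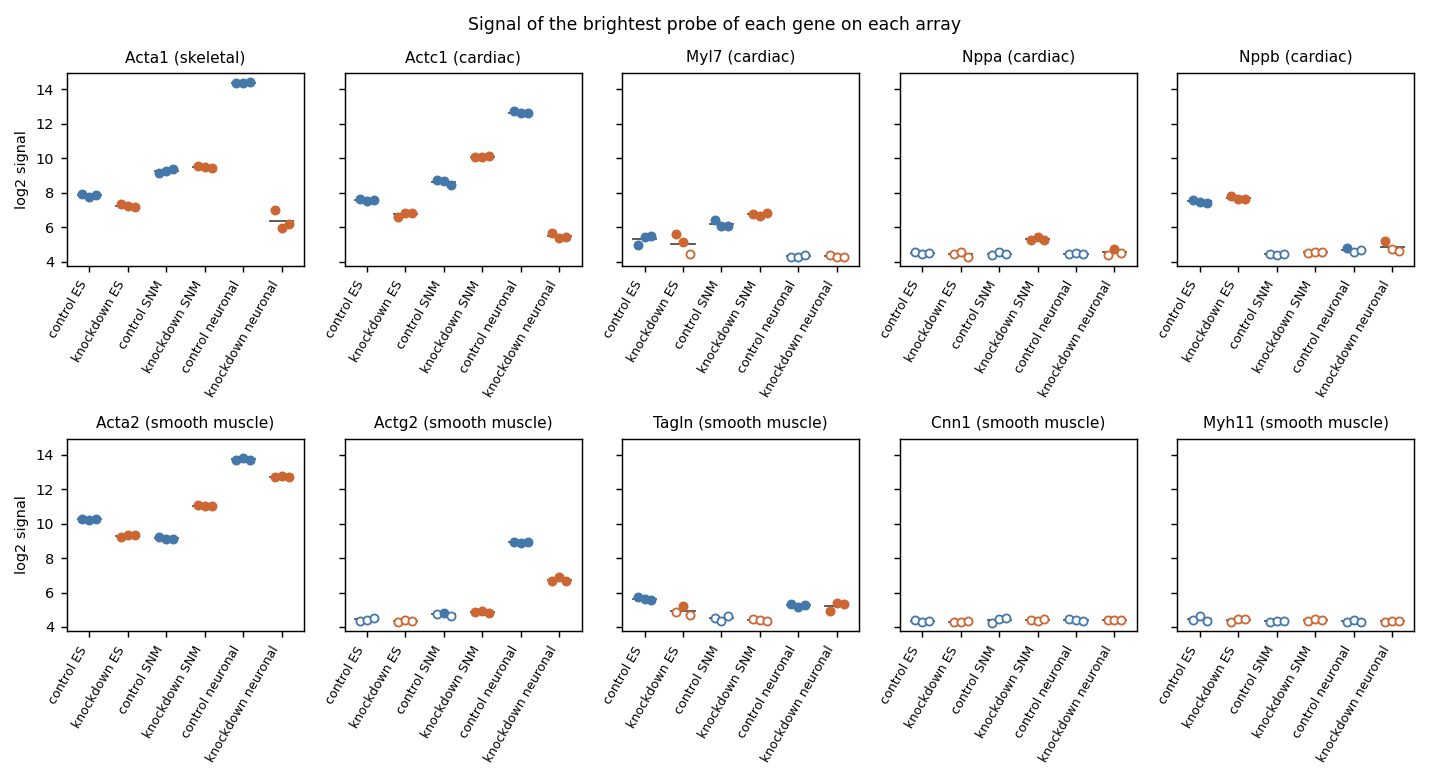
The log2 signal of the brightest probe of each of the 10 genes on every array, with 3 arrays for each of the 6 conditions on the horizontal axis (blue for control, orange for knockdown, bars for means), where filled points were detected and open points were not. Acta1 and Actc1 were highest in control and lowest in knockdown cells of the neuronal stage (14.39 against 6.36 for Acta1), whereas Acta2 stayed high in both (13.73 and 12.72) and Cnn1 and Myh11 were not detected on any array.

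Actc1 (chromosome 2) encodes cardiac actin. The control arrays read 7.65, 7.50 and 7.56 at the ES stage, and the knockdown arrays 6.60, 6.84 and 6.81. As SNM they read 8.73, 8.68 and 8.46 in control cells and 10.04, 10.10 and 10.11 in knockdown cells, so that knockdown cells were below control cells first and above them later. The neuronal arrays read 12.73, 12.61 and 12.61 in control cells and 5.67, 5.40 and 5.44 in knockdown cells. The conditions took the same order as for Acta1, again with no overlap between neighbours.

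The log2 difference of Actc1 between knockdown and control cells was -0.82 for ES cells (standard error 0.09, adjusted p = 3.39e-05 from limma) and 1.46 for SNM (standard error 0.09, adjusted p = 1.37e-09 from limma). The change in this difference from the one stage to the other was 2.28 (standard error 0.12, adjusted p = 1.24e-09 from limma). Among neuronal cells the difference was -7.14, 141-fold, with no test. In the deposited signals this was a range of 5325 to 7083 in control cells against 88 to 98 in knockdown cells. The knockdown signals lie near background, so that the size of this fold depends on the background correction. The second Actc1 probe gave -0.94 (ES), 1.38 (SNM) and -6.89 (neuronal), and was not detected on 1 knockdown array of the neuronal stage. Actc1 rose by 1.05 in control and by 3.33 in knockdown cells from the ES to the SNM stage (adjusted p = 1.39e-08 and 4.25e-15 from limma). Thereafter control cells gained 4.03, and in knockdown cells the signal fell by 4.58.

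Myl7 (chromosome 11), the atrial regulatory myosin light chain, was a weak signal with another course. It read 4.97, 5.45 and 5.47 on the control and 5.61, 5.12 and 4.42 on the knockdown ES arrays, where 1 knockdown array did not detect it and the cell lines overlapped. On SNM arrays it read 6.41, 6.05 and 6.06 in control and 6.75, 6.66 and 6.83 in knockdown cells, with no overlap. On the neuronal arrays of both cell lines it was not detected. The difference at the SNM stage was 0.57 (95% confidence interval 0.12 to 1.02, adjusted p = 0.0315 from limma), which stayed under 1.5-fold and was not called. Myl7 rose from the ES to the SNM stage by 0.88 in control cells (adjusted p = 0.00128 from limma) and by 1.69 in knockdown cells (adjusted p = 1.54e-06 from limma). Compared with SNM, neuronal cells were at least 2.76-fold lower in the control and at least 4-fold lower in the knockdown line. In the control cells Myl7 was below detection on the arrays where Acta1 and Actc1 were highest. All 3 promoters held a CArG box, and its part in these levels was not tested.

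Nppa and Nppb (both on chromosome 4) encode the atrial and B-type natriuretic peptides, hormones of heart muscle cells. Nppa was detected on all 3 arrays of 1 condition only, the knockdown SNM, at 5.27, 5.43 and 5.23 against 4.38, 4.54 and 4.43 on control SNM arrays that did not detect it. That made it at least 1.46-fold higher in the knockdown cells (adjusted p = 1.08e-06 from limma). Nppa passed the detection filter through the knockdown SNM alone, where it was high, so that its p-values compare signal with background. In knockdown cells it was at least 1.3-fold higher at the SNM than at the ES stage (adjusted p = 1.99e-07 from limma), and 1 of 3 knockdown arrays of the neuronal stage detected it. The fitted differences of 0.86 and 0.88 behind these calls fell under 1.5-fold when the background was not corrected, to 0.40 and 0.43 after quantile normalization alone.

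Nppb took the opposite course, with 7.61, 7.47 and 7.41 on the control and 7.81, 7.63 and 7.64 on the knockdown ES arrays and no detection at the SNM stage. The knockdown ES arrays lay above the control arrays, but the difference of 0.20 did not pass the test (95% confidence interval -0.04 to 0.44, adjusted p = 0.281 from limma). From the ES to the SNM stage Nppb was at least 6.65-fold lower in control cells and at least 8.09-fold lower in knockdown cells (adjusted p = 3.95e-13 and 1.93e-13 from limma). Of the neuronal arrays, 1 of each cell line detected it.

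Acta2 (chromosome 19), the actin of vascular smooth muscle, pericytes and myofibroblasts, was detected on all 18 arrays. At the ES stage it read 10.25, 10.23 and 10.25 in control and 9.23, 9.32 and 9.31 in knockdown cells. The SNM arrays read 9.22, 9.10 and 9.12 in control and 11.06, 11.04 and 11.03 in knockdown cells. The neuronal arrays read 13.69, 13.79 and 13.70 in control and 12.72, 12.73 and 12.73 in knockdown cells. No pair of neighbours overlapped in the order control neuronal, knockdown neuronal, knockdown SNM, control ES, knockdown ES and control SNM. The knockdown cells of the neuronal stage, lowest for Acta1 and Actc1, thus stood second for Acta2.

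The knockdown cells had less Acta2 signal at the ES stage, by -0.96 (standard error 0.05, adjusted p = 9.79e-09 from limma). They had more at the SNM stage, by 1.90, which is 3.73-fold (standard error 0.05, adjusted p = 5.41e-14 from limma). The shift between these differences was 2.85 (standard error 0.07, adjusted p = 1.47e-13 from limma). From the ES to the SNM stage Acta2 fell by 1.10 in control cells (adjusted p = 4.15e-12 from limma) and rose by 1.76 in knockdown cells (adjusted p = 7.7e-15 from limma). Into the neuronal stage it went up by 4.58 in control and by 1.68 in knockdown cells, and the knockdown cells ended 2-fold below the control cells. Acta2, Actc1 and Acta1 therefore shared the rise of the control cells into the neuronal stage but parted in the knockdown cells, where only Acta2 of the 3 went up.

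Of 5 Acta2 probes, 4 were detected on all 18 arrays and moved alike. Their differences between knockdown and control cells ranged from -1.03 to -0.75 for ES cells and from 1.33 to 1.90 for SNM, and neuronal knockdown cells were 2-fold to 2.43-fold lower by these probes. The fifth probe was detected on 1 of 18 arrays. Probe sequences were not analysed here, so that signal shared between the closely related actin transcripts was not tested. The brightest Acta2 probe went up by 1.68 on the way from SNM to neuronal knockdown cells while the Acta1 and Actc1 probes fell by 3.12 and 4.58. In control cells these probes all rose over the same step, by 4.58 (Acta2), 5.14 (Acta1) and 4.03 (Actc1).

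**Figure D2:**
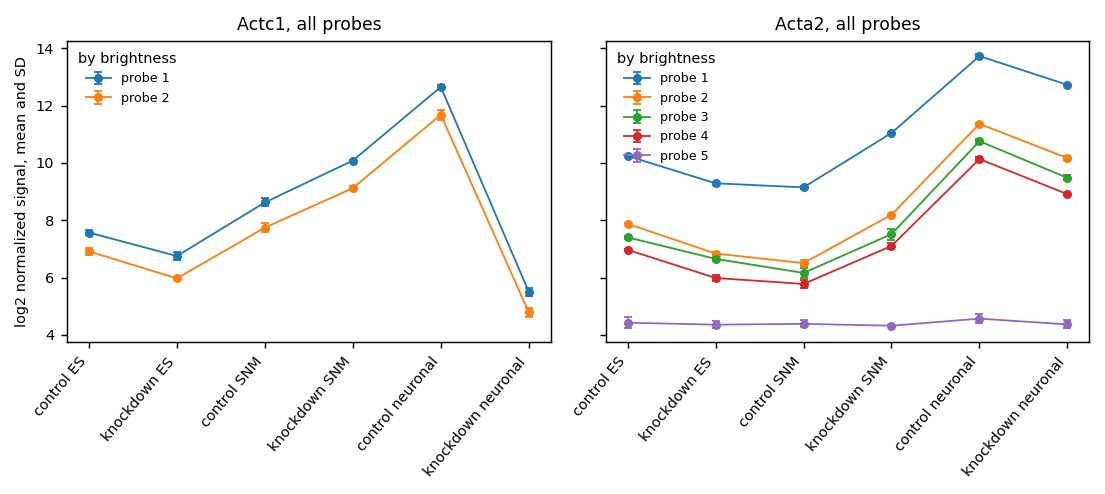
The log2 signal, as mean and SD of 3 arrays, of every probe of Actc1 (2 probes) and Acta2 (5 probes) over the 6 conditions, with probes numbered from the brightest. Both Actc1 probes and 4 of 5 Acta2 probes run in parallel, and the fifth Acta2 probe, detected on 1 of 18 arrays, stays at background.

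Actg2 (chromosome 6) is the enteric smooth muscle actin. No ES array detected it, and at the SNM stage it was detected on 1 of 3 control arrays and on all 3 knockdown arrays. Neuronal arrays read 8.94, 8.89 and 8.93 in control and 6.68, 6.88 and 6.69 in knockdown cells, so that knockdown cells were lower by -2.17, 4.51-fold, with no overlap. The difference at the SNM stage was 0.15 (95% confidence interval 0.01 to 0.30, adjusted p = 0.0739 from limma). Into the neuronal stage Actg2 went up in both cell lines, by 4.19 in control and by 1.86 in knockdown cells. Its neuronal-stage order, control above knockdown above all SNM arrays, was that of Acta2.

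Tagln (chromosome 9) encodes transgelin, an actin-binding protein of smooth muscle that fibroblasts also make. The ES arrays read 5.71, 5.62 and 5.55 in control cells and 4.90, 5.21 and 4.68 in knockdown cells, where 1 of 3 arrays detected it. The difference was -0.70 (standard error 0.13, adjusted p = 0.00278 from limma), which passed the test with no overlap but fell under 1.5-fold, to -0.57, without the third knockdown array. In SNM Tagln was not detected, and in control cells it was at least 1.82-fold lower than at the ES stage (adjusted p = 8.08e-07 from limma). Both lines detected it again when neuronal, at 5.25 ± 0.10 in control and 5.23 ± 0.26 in knockdown cells (SD, n = 3 arrays), and these arrays overlapped. A second Tagln probe was not detected on any array. Cnn1 (chromosome 9), which encodes calponin, and Myh11 (chromosome 16, 2 probes), which encodes the smooth muscle myosin heavy chain, were not detected on any of the 18 arrays. Cnn1 and Myh11 thus stayed at background where Acta2 and Actg2 were bright, and Lmod1 of the smooth muscle list was not detected on any array either. Smtn (8.30), Myl9 (9.32) and Mylk (8.45), other genes of contractile smooth muscle, were detected on all control arrays of the neuronal stage. They were not particular to it: control cells read 8.57 for Smtn and 8.26 for Myl9 at the ES stage, and 8.16 for Mylk as SNM.

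**Figure D3:**
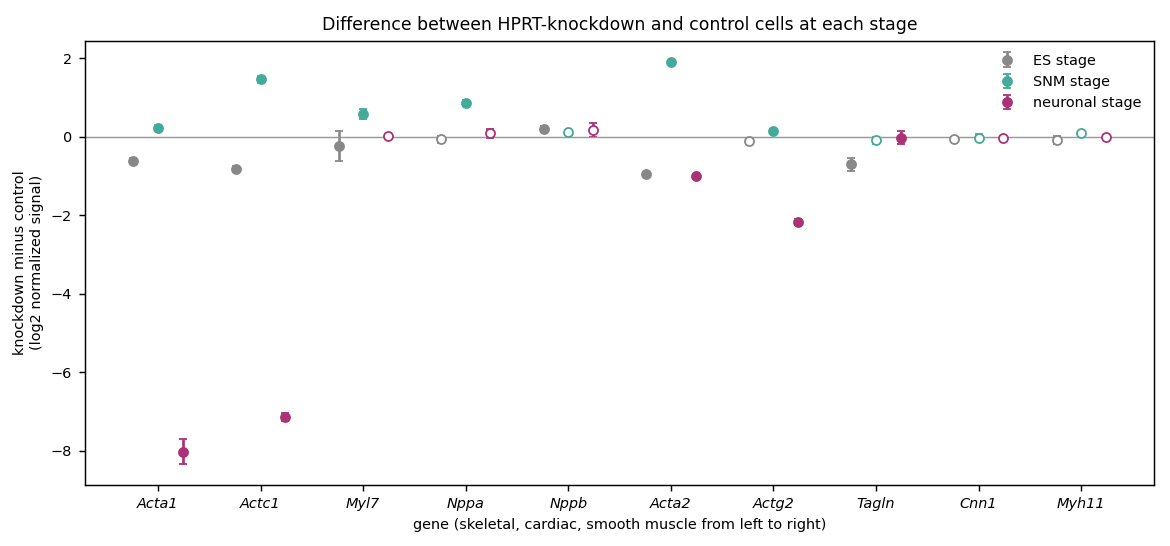
The difference in log2 signal between knockdown and control cells for the 10 genes at the ES, SNM and neuronal stages, with the standard error from 3 arrays in each condition, where open points mark genes that were detected on all 3 arrays of neither condition. Actc1 and Acta2 lie below zero for ES cells (-0.82 and -0.96), above it for SNM (1.46 and 1.90) and below it again for neuronal cells (141-fold and 2-fold lower).

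Counted together at the ES stage, 6 of the 10 genes passed the detection filter, and 4 of them were called lower in knockdown cells (Acta1, Actc1, Acta2 and Tagln). A call needed an adjusted p under 0.05 (Benjamini-Hochberg) and at least 1.5-fold change, and 1.17% of all probes tested were called lower by this rule and 0.516% higher. None of the 10 genes was called higher by limma, also at an unadjusted p-value under 0.05, at which 4 were lower by limma and by the methods' t-test. These were small differences, and the count was 2 in place of 4 without scaling or without background correction. Of the fibroblast and pericyte genes, which the feeder layer could bring in, 2 of 10 that passed were called lower (Col6a1 at -0.86 and S100a4 at -0.70), while Dcn at -0.57 and Col3a1 at -0.54 were not. At an unadjusted p-value under 0.05, 6 of these 10 genes were lower and 2 higher by limma, and 5 and 2 by the methods' t-test. Their median was -0.33 against 0.01 for all probes tested. Summed over the 18 genes of that list the signal ranged from 1665 to 1771 in control and from 1601 to 1723 in knockdown ES cells. The part of feeder cells in the ES result was not tested, and in bulk RNA fewer cells of a type and less RNA per cell cannot be told apart. None of the 8 pluripotency genes was called in either direction at this stage, and 1 was higher at an unadjusted p-value under 0.05.

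At the SNM stage 6 of the 10 genes passed and 3 were called higher in knockdown cells (Actc1, Nppa and Acta2), against 11% of all probes tested that were called higher and 8.9% that were called lower. Nppa, which no control array of that stage detected, was at least 1.46-fold higher, short of 1.5-fold by this bound. None of the 10 was lower, also at an unadjusted p-value under 0.05, where 5 were higher by limma and by the methods' t-test. The knockdown effect shifted upward between ES cells and SNM for 6 of 8 genes that passed and downward for none, also at an unadjusted p-value under 0.05, where 7 shifted upward by limma. Of all probes tested 11.7% shifted upward and 9.61% downward. The 6 genes were Acta1 (0.83), Actc1 (2.28), Myl7 (0.81), Nppa (0.92), Acta2 (2.85) and Tagln (0.61). The calls of Actc1 and Acta2 held under every alternative setting and with any 1 array left out, whereas those of the other 4 genes did not. Nppa was detected in the knockdown SNM alone of the 4 conditions behind its shift, and Tagln in neither SNM condition, so that their values are set against background signal.

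From the ES to the SNM stage the control cells had 3 of 6 genes higher (Acta1, Actc1 and Myl7) and 3 lower (Nppb, Acta2 and Tagln), against 23.7% and 25.4% of all probes. The knockdown cells had 5 of 7 higher (Acta1, Actc1, Myl7, Nppa and Acta2) and 1 lower (Nppb), against 26.4% and 30.9% of all probes. Nppa, which no knockdown ES array detected, was at least 1.3-fold higher, short of 1.5-fold by this bound. The shares for probes show how much of the array changed between these stages. Acta2 was the 1 gene that was called in opposite directions in the 2 cell lines.

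At the neuronal stage 5 of the 10 genes passed, and 4 were lower in knockdown cells by at least 1.5-fold with arrays that did not overlap (Acta1, Actc1, Acta2 and Actg2). By that rule 13.4% of all probes were lower and 13.8% higher, and since the genes were proposed from this comparison nothing is read from the count. On the way from SNM to neurons control cells had 5 genes higher (Acta1, Actc1, Acta2, Actg2 and Tagln) and 1 lower (Myl7), against 14.2% and 15% of all probes. Knockdown cells had 3 higher (Acta2, Actg2 and Tagln) and 4 lower (Acta1, Actc1, Myl7 and Nppa), against 13.8% and 14.8% of all probes. Tagln, which no SNM array detected, was at least 1.4-fold higher in control and at least 1.46-fold higher in knockdown cells, short of 1.5-fold by this bound.

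The genes whose 6 condition means ran most like those of the 3 bright actins are given as a description over 6 points, with 12862 to 12865 probes compared. For Acta1 they were LOC100044934 (Pearson r = 0.987), Unc45b (0.986), which encodes a myosin chaperone of striated muscle, and Serpini1 (0.986), a neuronal serpin. For Actc1 they were again Unc45b (0.987), 1110059G02Rik (0.984) and Myl4 (0.979), the atrial and embryonic essential myosin light chain. For Acta2 they were Hoxb7 (0.993), a homeobox gene, Sdpr (0.988), which encodes a protein of caveolae, and Tpm1 (0.986), an actin-binding tropomyosin. Unc45b read 8.58 in control and 4.43 in knockdown cells of the neuronal stage, whereas Tpm1 read 11.88 and 11.82.

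Other genes of striated muscle gave the surroundings of Acta1 and Actc1. Of 20 skeletal muscle genes on the array, 9 passed at the ES stage and none was called (1 was higher at an unadjusted p-value under 0.05 by limma, 0 by the methods' t-test). In SNM 11 of 14 were called higher in knockdown cells, against 11% of all probes. Among them were Myh8 (1.99) and Myh3 (1.69), myosin heavy chains of perinatal and embryonic muscle, and Myog (0.65), the myogenic factor myogenin. The median of the genes that passed was 0.88 against -0.04 for all probes tested, while Acta1 itself, at 0.23, did not pass the test. Among neuronal cells 18 of 19 were lower in knockdown cells, against 13.4% of all probes, with a median of -6.04 against 0.01. The lists were chosen with this lower muscle signal already known, so nothing is read from neuronal-stage counts of this or the following lists. Fast troponin C, Tnnc2, was lower by -8.56, Myh3 by -8.14 and Myog by -4.36, while Myod1 at -0.49 was not called. The summed skeletal signal of that stage ranged from 95604 to 98620 on control arrays and from 328 to 493 on knockdown arrays.

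Of 21 cardiac genes on the array, 3 of 7 that passed were lower in knockdown cells at the ES stage, against 1.17% of all probes. They were Myl3 (-1.05), a ventricular light chain, Ankrd1 (-0.62) and Tnnc1 (-0.60), the cardiac and slow troponin C. In SNM 8 of 11 were higher, against 11% of all probes, with a median of 1.09 against -0.04. Among them were Gata6 (1.92), a factor of heart and endoderm, Sln (1.96), which encodes sarcolipin, and Tnnc1 (1.36). Among neuronal cells 9 of 13 were lower and 2 higher, against 13.4% and 13.8% of all probes. Those lower included Myl4 (-7.38), Sln (-7.25) and Tnnc1 (-6.61). Myl2 (7.84 in control and 4.21 in knockdown cells), Ankrd1 (10.64 and 5.49), Mef2c, Ryr2 and Atp2a2 were lower too. So was Myh6, at 5.65 in control cells and 4.52 in knockdown cells, where no array detected it. Striated muscle outside the heart also makes several of these genes, among them Myl4, Sln, Tnnc1 and Myl2. Their lower levels are thus not particular to the heart. Gata6 (1.15) and Myl3 (1.30) were higher, and Hand2 (0.23) and Nkx2-5 (-0.01), factors of heart precursors, were not called. Myh7, Tbx5 and Tbx20 were not detected on any array.

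Of 18 smooth muscle genes on the array, 2 of 9 that passed were lower at the ES stage (Myl9 at -0.65 and Tpm2 at -0.64), against 1.17% of all probes. At the SNM stage 4 of 12 were higher, against 11% of all probes (Myl9 at 1.42, Des at 0.68, Tpm1 at 0.61 and Hspb6 at 0.60). The median of the list was then 0.02 against -0.04 for all probes. Among neuronal cells 7 of 15 were lower and 1 higher, against 13.4% and 13.8% of all probes, with a median of -0.55 against 0.01. Those furthest down were Des (-5.90), which is also on the skeletal list, Mustn1 (-3.95) and Ldb3 (-2.66), genes that skeletal muscle makes too. The other genes called lower were Tpm2 (-2.28), a tropomyosin, Pgm5 (-1.24), Smtn (-1.08), which encodes smoothelin, and Itga8 (-0.90), and the 1 higher was Hspb6 (0.91). Myl9 (-0.55), Mylk (-0.27), Cald1 (0.36) and Tpm1 (-0.06), which also belong to the smooth muscle contractile system, were not called. Myl9, the smooth muscle regulatory light chain, was like Acta2 lower at the ES and higher at the SNM stage in the knockdown cells.

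**Figure D4:**
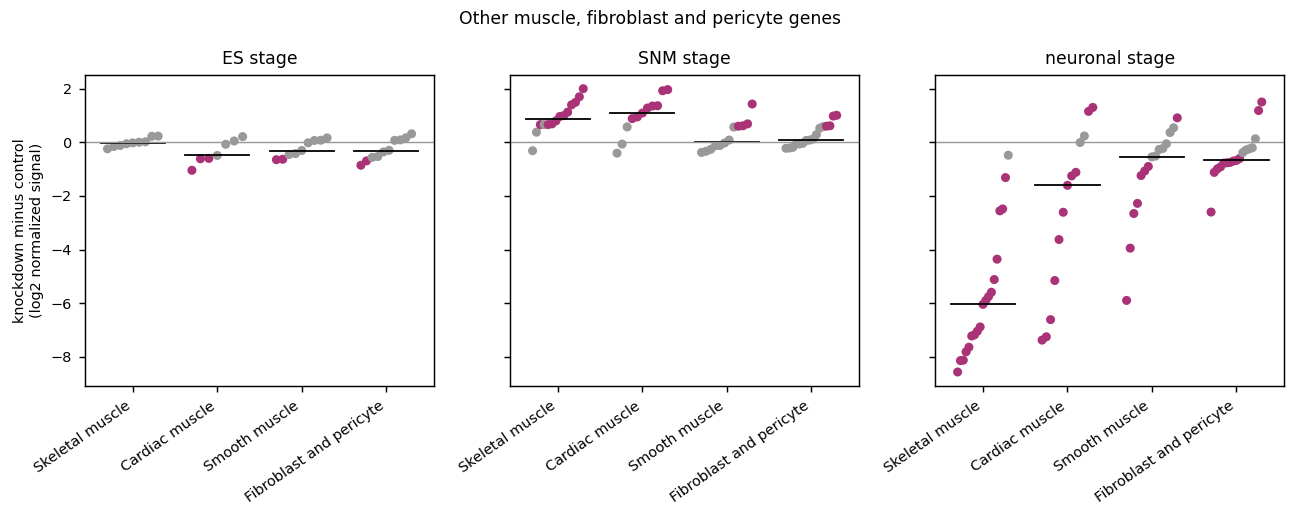
The difference in log2 signal between knockdown and control cells at each stage for every skeletal, cardiac and smooth muscle gene and every fibroblast and pericyte gene that passed the detection filter, 1 point a gene (purple if called, grey if not) with the median as a bar. At the neuronal stage the medians are -6.04, -1.61, -0.55 and -0.68 in this order, and at the SNM stage 0.88, 1.09, 0.02 and 0.10.

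Fibroblasts and pericytes make Acta2 as well. Of their genes, 4 of 16 that passed in SNM were higher in knockdown cells, against 11% of all probes (Fn1 at 1.00, Col1a1 at 0.97, Dcn at 0.61 and Pdgfra at 0.60), with a median of 0.10. The summed signal of the 18 genes ranged from 10715 to 11379 on control and from 12104 to 13254 on knockdown arrays of that stage. Among neuronal cells 10 of 17 were lower, against 13.4% of all probes, among them Lum (-2.60) and Col1a1 (-1.13). Against 13.8% of all probes, 2 were higher, Cspg4 (1.18), a pericyte marker, and S100a4. The sums were then 32251 to 35182 in control and 18877 to 21712 in knockdown cells, with no gene of the list undetected on all knockdown arrays. The part of fibroblasts and pericytes in the Acta2, Actg2 and Tagln values was not tested.

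The factors that act on the CArG box were compared in the same way, as RNA levels only. Srf itself was detected on all arrays and its difference between knockdown and control cells was -0.34 (ES), -0.25 (SNM) and -0.55 (neuronal), not called at any. Of 13 genes of SRF, myocardin, MEF2 and related factors on the array, 1 of 7 was lower at the ES stage (Fhl2 at -0.72), against 1.17% of all probes. At the SNM stage 1 of 7 was higher (Fhl1 at 0.79), and at the neuronal stage 2 of 7 were lower (Mef2c at -2.61 and Fhl1 at -0.89). At an unadjusted p-value under 0.05 by limma, 2 were higher and 3 lower at the ES stage (1 and 3 by the methods' t-test). At the SNM stage 2 were higher and 2 lower by either test. Mkl1, Elk1 and Tead1 were not detected on any array. Of 14 immediate and cytoskeletal SRF targets, all passed at the ES stage and none was called, although 2 were higher and 6 lower at an unadjusted p-value under 0.05 by limma (2 and 5 by the methods' t-test). At the SNM stage 1 of 12 was higher (Ctgf at 1.72) and 1 lower (Egr2 at -1.41). At the neuronal stage 4 of 12 were higher, among them Fos (3.59), and 1 lower, Vcl (-0.77), which encodes vinculin. Of all probes, 11% were higher and 8.9% lower at the SNM stage, and 13.8% higher and 13.4% lower at the neuronal stage. The cytoplasmic actin Actb differed by -0.13, -0.15 and -0.16 at the 3 stages and was not called at any of them.

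Around the natriuretic peptides, 2 of 3 genes that passed at the SNM stage were higher in knockdown cells, against 11% of all probes. These were Corin (2.22), the protease that cuts the Nppa precursor, and Npr3 (1.33), the clearance receptor, while Npr2 (0.21) was not called. In neuronal cells Corin was higher by 2.30 and Npr3 lower by -1.09, beside Nppa at or near background in both lines. At that stage neuron genes were lower as well, 4 of 5 that passed, led by Ina (-3.57) and Stmn2 (-3.07), and so were all 8 pluripotency genes (median -1.94). Of all probes, 13.4% were lower at that stage.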

How the data were processed

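Total RNA of ESD3 cells was measured on 18 arrays (Illumina MouseWG-6 v2). The authors deposited the signal intensity of each probe on each array (average over beads, without background subtraction or normalization) and the detection p-value. A second deposited table supplied the probe annotation, and its 72 columns of per-sample values, named by chip position, were not used. Raw intensities sit on a linear scale, and the number of arrays limits the precision.

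The signals were processed with neqc in limma 3.58.1 (R 4.3.3), with the background estimated from detection p-values, an offset of 16, quantile normalization and log2. One limma model (lmFit, contrasts.fit, eBayes) with 6 conditions was fitted to 18 arrays. A probe was tested if all 3 arrays of any compared condition detected it (p under 0.05), and p-values were adjusted by Benjamini-Hochberg over all tested probes. Calls needed adjusted p under 0.05 and 1.5-fold, two-sided. Comparisons with neuronal-stage arrays were described by fold and overlap of arrays only. For a probe detected on no array of one condition, "at least" folds were set against the lowest detected signal of each array, or the probe's own where higher. The fit was tested on simulated data.

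The 10 genes, the lists of related genes and the tests were chosen with earlier results of these data known. Named were these genes, Hprt1, list genes on which a result turned, and for Acta1, Actc1 and Acta2 the 3 probes of other symbols with the most similar condition means, among probes detected in a condition and spanning at least 1 on the log2 scale. All 10 symbols were matched to the RefSeq gene table, which gave the chromosomes. Array numbers were read from the titles. In SNM the equally numbered arrays of both cell lines deviated together (correlations of their deviations 0.518, 0.107 and 0.507), as did those of knockdown cells at the SNM and neuronal stages (0.548, 0.134 and 0.53), so that the number was used as a block in an alternative. The other alternatives were 3 other normalizations, other detection and fold thresholds, the mean over probes, the compared arrays alone, the methods' t-test and leaving out each array. RNA-Seq data were not analysed here.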

Additional observations from a re-analysis of the deposited data

Results flagged for a closer look

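The knockdown effect differed between the ES and SNM stages by a test of the difference itself in limma for 6 genes. The shift on the log2 scale, effect at SNM minus effect at ES, was 2.85 for Acta2 (adjusted p = 1.47e-13 from limma), 2.28 for Actc1 (1.24e-09), 0.92 for Nppa (3.96e-05), 0.83 for Acta1 (0.0127), 0.61 for Tagln (0.0148) and 0.81 for Myl7 (0.0389). For Acta2 and Actc1 all knockdown arrays were below the control arrays at the ES stage and above them at the SNM stage. Nppa was detected on no ES array and on no control SNM array, and passed the filter through the knockdown SNM, where it was high. Tagln was detected on no SNM array. The shifts of both are thus differences from background signal, and no test of a change in a measured effect.

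For 4 genes every knockdown array was above the control arrays at the SNM stage and below them at the neuronal stage. The effect at the neuronal stage minus that at SNM was -8.26 for Acta1, -8.61 for Actc1, -2.90 for Acta2 and -2.33 for Actg2, and this difference was not tested. For Acta1 and Actg2 the SNM values behind it, 0.23 and 0.15, did not pass the test.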

How the results depend on the processing

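With at least 1.5-fold required, 4 genes were lower in knockdown cells at the ES stage. This count was 2 after quantile normalization without background correction, 2 after scaling to the 75th percentile, 2 with background correction but no scaling, 0 when 2-fold was required, 1 by the methods' t-test after Benjamini-Hochberg adjustment, and 2 to 3 with 1 array left out (2 without the third knockdown array, where Tagln fell under 1.5-fold). The count of 6 genes whose knockdown effect shifted upward from ES to SNM became 3, 2 and 2 under quantile normalization alone, scaling to the 75th percentile and the 2-fold requirement. Without the third knockdown ES array the ES difference of Myl7, which was not called, turned from -0.24 to 0.071 (-0.52 to 0.071 over all arrays left out). The call of Myl7 for the shift between stages was lost without any 1 of 9 of the 12 arrays (0.50 to 1.09), and that of Tagln without any 1 of 4 (0.48 to 0.75). Without scaling between arrays the median of all probes tested from ES to SNM was 0.19 in control and 0.12 in knockdown cells, against -0.08 and -0.11, and no call of a gene changed direction. All other counts of genes stayed within 1.5 times under every alternative. With the array number as a block for pairing, 3 genes were higher at the SNM stage and 4 lower at the ES stage, as without it, and no call changed. Nppa, Myl7 and Tagln, and Actg2 at the ES and SNM stages, lay close to background, where 3 arrays of 1 pool limit the precision most.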
